A study of Mus musculus with 8 samples.

Results

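Base excision repair (BER) was examined in mouse acute myeloid leukemia (AML) cells through the transcripts of 10 genes, Apex1, Ung, Smug1, Tdg, Neil1, Ogg1, Xrcc1, Lig3, Polb and Parp1. They are 10 of the 54838 genes in the count table, and all 10 were among the 10911 genes with enough counts to be tested. The set was assembled around Apex1 because Apex1 was already known to be much lower after treatment in these same samples. The difference in Apex1 between the groups is therefore given as a description, and no p-value is reported for it. The other 9 genes were added for their place in the pathway, but also with earlier results of these data known. They were tested in 1 fit over all 10911 genes.

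BER replaces damaged or misplaced bases in DNA. A glycosylase cuts the base off its sugar, APEX1 nicks the backbone beside the empty sugar, POLB fills the gap, and LIG3, held by the scaffold protein XRCC1, seals the nick, while PARP1 senses the open strand and recruits XRCC1. Uracil is a main substrate of the pathway in dividing cells, where it arises from cytosine that loses its amino group and from dUTP that polymerases insert in place of dTTP, and repair of inserted uracil needs a supply of pyrimidine nucleotides to refill the gap.

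All 8 samples were AML cells with the RUNX1-RUNX1T1 genotype on a C57BL/6 background, grown in Ptprca recipient mice. The labels describe these mice as sub-lethally irradiated, whereas the study's methods mention irradiation only for its other models. Recipients received vehicle (4 samples) or AG636 (4 samples), an inhibitor of the pyrimidine synthesis enzyme DHODH that was dosed at 100 mg/kg b.i.d. by oral gavage. The study's legend states that cells of this model were sorted after a day of treatment. Leukemic cells were sorted from marrow and spleen, with the tissue of each sample not given. Their RNA was read from the 3′ end with QuantSeq, so that counts depend little on transcript length. Levels were compared between genes on that basis. Those of Apex1, Lig3, Ogg1 and Tdg are uncertain, because annotated exons of another gene cover their ends. The study names fewer mice than 4 per group for this model and does not say which samples share a mouse, so p-values measure only the spread between these samples. The leukemia is a transplanted tumor with a fusion gene and stands for no other AML genotype.

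Libraries held 6120030 to 7162036 counts. Kit, the receptor used in the sort, was at 153 to 252 CPM (counts scaled to the library total), and Itgam, which encodes the CD11b antigen that the sort selected against, had at most 4 counts in any library. The 12 leukemic progenitor markers, Kit among them, summed to 859 to 962 CPM in Vehicle and 951 to 1156 CPM in AG636. Of these 12 markers, 7 had enough counts to be tested and 5 did not. Among the latter, Cebpa and Flt3 had at most 1 and 5 counts. Of the erythroid markers, Gata1 and Klf1 were at 196 to 266 and 112 to 239 CPM. These 4 genes were chosen for mention after their values were seen, and no cell identity is read from them. The summed level of 14 erythroid markers was 6973 to 10847 CPM in Vehicle and 9238 to 11495 CPM in AG636, that of 10 B cell markers 16.3 to 39.6 and 25.9 to 109 CPM, that of 12 T and NK cell markers 11.9 to 16.9 and 12.9 to 28.6 CPM, and that of 16 mature myeloid markers 51.7 to 117 and 20.4 to 239 CPM. Of the markers with enough counts, limma called 1 of 14 erythroid genes (Hbb-bt) and 1 of 6 B cell genes (Cd79a). Both were higher in AG636, as were 5.47% of all genes tested. In these lists edgeR called 2 and 1 genes higher, and DESeq2 called 3 and 0. None of 7 leukemic progenitor, 3 T and NK cell or 9 mature myeloid genes was called by limma, edgeR or DESeq2. By limma 3, 0 and 1 of them had an unadjusted p under 0.05. Vehicle sample 4 and AG636 sample 3 stood apart from their groups in multidimensional scaling. The part of these mixtures in the differences below was not tested, and fewer cells of a type cannot be told apart from less RNA per cell in sorted bulk samples.

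The upstream sequences of Apex1 and of the 3 other genes that were called lower are shown because these are the genes of the set with lower levels. Each stretch ends at or near the start of transcription given by RefSeq on GRCm38.p6 and leaves out annotated exons. Apex1 is shortest because only 74 bases separate its first exon from that of Osgep, which is read in the opposite direction. Capitals mark matches, on either strand, to the E-box CACGTG, the CCAAT box CCAAT, the GC box GGGCGG, the NRF1 core GCGCATG and the cyclic AMP response element core TGACGTC, and overlapping matches run together.
Apex1, chr14:50924894-50924948, + strand: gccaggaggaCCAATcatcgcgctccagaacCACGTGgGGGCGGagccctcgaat
Ung, chr5:114130236-114130385, + strand: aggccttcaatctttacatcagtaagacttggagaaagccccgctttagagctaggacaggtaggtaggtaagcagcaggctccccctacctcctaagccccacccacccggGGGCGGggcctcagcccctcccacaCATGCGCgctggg
Tdg, chr10:82629678-82629827, + strand: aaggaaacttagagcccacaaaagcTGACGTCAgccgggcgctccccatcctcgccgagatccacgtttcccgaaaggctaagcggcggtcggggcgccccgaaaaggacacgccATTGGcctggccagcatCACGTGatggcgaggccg
Parp1, chr1:180568741-180568890, + strand: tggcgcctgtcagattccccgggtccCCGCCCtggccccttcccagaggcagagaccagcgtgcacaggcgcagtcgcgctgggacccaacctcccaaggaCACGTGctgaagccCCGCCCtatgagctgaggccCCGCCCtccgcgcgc

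An E-box was present in the stretches of Apex1, Tdg and Parp1 but not in that of Ung. In 300-base windows, from 250 bases before to 50 after the start, the E-box occurred in 4 of the 9 genes of the set that have a RefSeq window (Apex1, Lig3, Parp1 and Tdg) and in 7.15% of 32851 windows. The transcript of Lig3, with an E-box, was not called, whereas that of Ung, which lacks it, was. The GC box occurred in 6 of the 9 windows against 35.7% of all windows, and the CCAAT box in 5 against 37.4%. The E2F core TTCCCGC, present in 4.60% of windows, occurred in none of the 9, the YY1 core CCATNTT (16.1%) in that of Neil1, the NRF1 core (3.91%) in that of Ung and the cyclic AMP response element core (3.21%) in those of Smug1 and Tdg. A match describes letters only and is not evidence of a bound factor.

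In Vehicle samples the pathway was led by its nick sensor. Parp1 averaged 447 ± 5.72 CPM (SD, n = 4 here and below), followed by Ung at 165 ± 27.3, Apex1 at 108.9 ± 1.83, Lig3 at 43.3 ± 3.80, Polb at 36.4 ± 2.54, Xrcc1 at 35.7 ± 7.78, Tdg at 24.9 ± 1.85, Smug1 at 21.7 ± 2.90, Ogg1 at 10.9 ± 1.07 and Neil1 at 8.52 ± 0.276 CPM. Neighbors in this order overlapped in range only for Polb and Xrcc1 and for Tdg and Smug1. The places of Apex1, Lig3, Tdg and Ogg1 are uncertain here and in AG636, because annotated exons of other genes cover their 3′ ends. The 10 genes together held 903 ± 18.1 CPM, of which Parp1 made up 49.5 ± 1.13%. In AG636 samples they held 657 ± 49.99 CPM, with 51.4 ± 1.26% from Parp1. Parp1, Ung, Apex1 and Lig3 kept the first 4 ranks there, followed by Xrcc1, Polb, Smug1, Tdg, Neil1 and Ogg1, and the ranges overlapped from Lig3 through Tdg between each gene and the next and again between Neil1 and Ogg1.

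**Figure D1:**
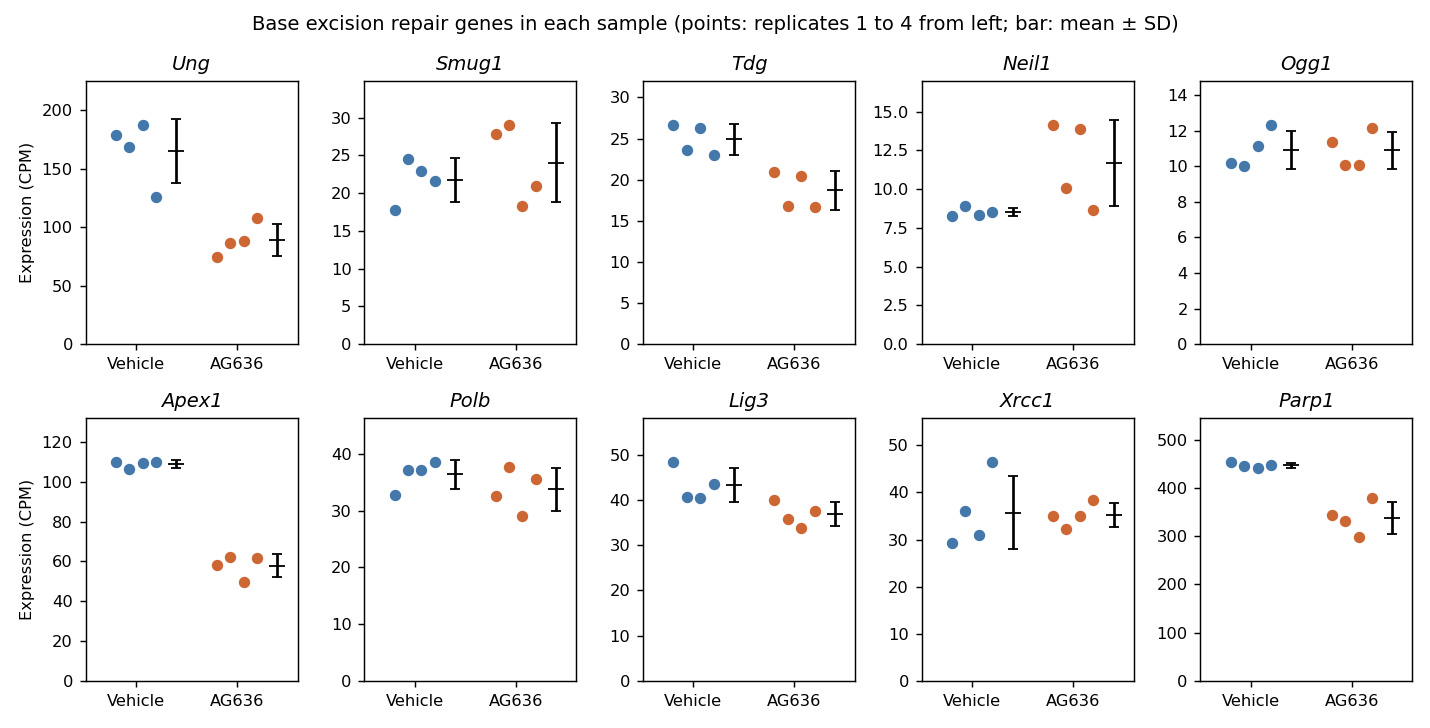
Level of each of the 10 BER transcripts in CPM, 1 panel per gene with its own axis from 0. Points are replicates 1 to 4 from left to right in Vehicle and in AG636, and bars give the mean ± SD. The 4 AG636 samples lie below the 4 Vehicle samples for Apex1, Ung, Tdg, Lig3 and Parp1, and the groups overlap for the other genes.

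To determine how the pathway changed with DHODH inhibition, levels in AG636 were set against those in Vehicle. Of the 9 genes other than Apex1, Ung, Parp1 and Tdg were called lower and none higher by limma (adjusted p under 0.05 over all genes tested). Over all 10911 genes tested, 14.0% were called, 8.49% lower and 5.47% higher. edgeR's quasi-likelihood test called the same number lower, 3, and DESeq2 called 2, against 14.8% (8.41% lower) and 18.0% (9.30% lower) of all genes. For the 0 higher calls, the number of these 9 genes with an unadjusted p under 0.05 was also 0 by limma, and edgeR and DESeq2 gave 0 higher calls with 1 gene each under that unadjusted limit. Of the 9 genes, 5 had a log2 fold change below 0, against 50.6% of all genes, and 4 had groups that did not overlap, each lower in AG636, against 12.9% of all genes lower and 9.35% higher without overlap. The median log2 fold change of the 9 genes was −0.11, against −0.0056 over all genes tested. Since the set was chosen with results of this contrast known, nothing is read from these shares.

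The step after base removal showed the change around which the set was built. Apex1 encodes the main AP endonuclease, which cuts the backbone at sites that have lost a base, and the same protein acts as a redox factor on transcription factors. Its gene (ENSMUSG00000035960) lies at chr14:50924968-50927139 on the + strand. Apex1 was at 109.8, 106.2, 109.4 and 110.1 CPM in Vehicle samples 1 to 4 and at 58.0, 62.4, 49.6 and 61.7 CPM in AG636 samples 1 to 4. The Vehicle values lay within a narrow band, every AG636 value lay below it, and AG636 sample 3 was the lowest. Means were 108.9 ± 1.83 CPM in Vehicle and 57.9 ± 5.87 CPM in AG636, a fitted 0.531 times the Vehicle level and −0.91 on the log2 scale (SE 0.09). Over 19 alternative fits the log2 fold change lay between −0.95 and −0.84. That range describes the processing only, since every fit uses samples in which Apex1 was chosen for its fall.

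Uracil in DNA is removed by UNG, SMUG1 and TDG, and among these Ung was the most abundant and had the largest difference. UNG is the main uracil glycosylase of dividing cells, with a nuclear form that works at replication forks and a mitochondrial form. Its gene (ENSMUSG00000029591) lies at chr5:114130386-114139323 on the + strand. Ung was at 179, 168, 188 and 126 CPM in Vehicle samples 1 to 4 and at 74.8, 86.8, 88.2 and 108 CPM in AG636 samples 1 to 4. Vehicle sample 4 was the lowest of its group and AG636 sample 4 the highest, and the groups did not overlap. Ung fell by 0.88 on the log2 scale (SE 0.14, adjusted p by limma = 0.00472), with means of 165 ± 27.3 CPM in Vehicle and 89.4 ± 13.7 CPM in AG636, a fitted 0.544 times the Vehicle level (95% interval 0.437 to 0.677). Without Vehicle sample 4 the log2 fold change was −0.99, and without AG636 sample 3 it was −0.88. The smallest fall was −0.80, without AG636 sample 1 (limma adjusted p = 0.0141). The largest limma adjusted p of such a fit was 0.0209, without Vehicle sample 3 (log2 fold change −0.82).

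TDG removes thymine and uracil opposite guanine as well as oxidized forms of methylcytosine, a step of active DNA demethylation. Its gene (ENSMUSG00000034674) lies at chr10:82629828-82650799 on the + strand. Tdg was at 26.7, 23.7, 26.3 and 23.0 CPM in Vehicle and at 20.99, 16.8, 20.4 and 16.6 CPM in AG636 samples 1 to 4. The groups did not overlap, with Vehicle sample 4 and AG636 sample 1 nearest each other. The log2 fold change of −0.42 (SE 0.13) passed the threshold only narrowly, at a limma adjusted p of 0.04999, and the call was lost in 16 of 19 alternative fits, whose adjusted p-values ran from 0.0414 to 0.133. A pseudogene, Tdg-ps, had 54 counts over all samples against 1141 for Tdg, and how reads matching both were counted is not stated.

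SMUG1, a back-up uracil glycosylase that also removes hydroxymethyluracil, was not called. Smug1 was at 17.8, 24.6, 22.9 and 21.6 CPM in Vehicle and at 27.8, 29.1, 18.4 and 20.96 CPM in AG636. AG636 samples 1 and 2 lay above all Vehicle samples and the other two lay among them. The log2 fold change was 0.13 (95% interval −0.25 to 0.51, limma adjusted p = 0.647). Ung made up 77.7 ± 2.75% of the summed level of Ung, Smug1 and Tdg in Vehicle and 67.4 ± 5.81% in AG636, with ranges of 73.9 to 80.1% and 60.5 to 74.2% that overlapped slightly.

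Oxidized bases are removed by OGG1, which excises 8-oxoguanine, and NEIL1, which excises oxidized pyrimidines. Both had the lowest counted levels of the set. Ogg1 was at 10.2, 9.99, 11.1 and 12.3 CPM in Vehicle and at 11.4, 10.06, 10.05 and 12.1 CPM in AG636. The groups overlapped throughout, with a log2 difference of 0.0032 (95% interval −0.33 to 0.33, limma adjusted p = 0.991). Neil1 was at 8.30, 8.91, 8.36 and 8.52 CPM in Vehicle and at 14.2, 10.06, 13.9 and 8.67 CPM in AG636. AG636 sample 4 lay among the Vehicle samples and the other AG636 samples above them, and the log2 difference of 0.42 was not called (95% interval −0.02 to 0.85, limma adjusted p = 0.176). These rows rest on 54 to 91 counts per library, the lowest depth of the set, so smaller differences were not detectable.

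None of the 3 genes for gap filling and sealing was called by limma, edgeR or DESeq2. These tools called 14.0%, 14.8% and 18.0% of all genes tested, so nothing is read from this count. Lig3, the ligase of the nuclear short-patch route and of mitochondrial DNA, was at 48.5, 40.6, 40.4 and 43.7 CPM in Vehicle and at 40.1, 35.9, 33.8 and 37.6 CPM in AG636. The groups did not overlap, as was so for 22.2% of all genes tested, but Vehicle sample 3 and AG636 sample 1 nearly met. The log2 fold change was −0.23 (SE 0.10, 95% interval −0.46 to −0.0054) and was not called (limma adjusted p = 0.154), nor was it in any of 19 alternative fits.

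Polb, the polymerase that inserts the missing nucleotide and trims the remaining sugar, was at 32.8, 37.2, 37.1 and 38.6 CPM in Vehicle and at 32.7, 37.7, 29.0 and 35.6 CPM in AG636. The groups overlapped, with AG636 sample 3 lowest and a log2 difference of −0.11 (95% interval −0.36 to 0.13, limma adjusted p = 0.533). Xrcc1, the scaffold that holds LIG3 and POLB at the nick, was at 29.3, 36.0, 30.9 and 46.6 CPM in Vehicle and at 35.0, 32.2, 34.9 and 38.4 CPM in AG636. All AG636 values lay inside the Vehicle range, which Vehicle sample 4 extended, and the log2 fold change was 0.0029 (95% interval −0.32 to 0.32, limma adjusted p = 0.992).

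Parp1, which encodes the enzyme that binds strand breaks and marks the surrounding proteins with ADP-ribose chains, was lower in all AG636 samples. Its gene (ENSMUSG00000026496) lies at chr1:180568924-180601254 on the + strand. Parp1 was at 455, 445, 441 and 447 CPM in Vehicle and at 343, 332, 298 and 379 CPM in AG636. The Vehicle values were close together, no AG636 value reached them, and AG636 sample 3 was again the lowest. Parp1 fell by 0.41 on the log2 scale (SE 0.09, adjusted p by limma = 0.0121), with means of 447 ± 5.72 CPM in Vehicle and 338 ± 33.5 CPM in AG636, a fitted 0.754 times the Vehicle level (95% interval 0.661 to 0.859). With 1868 to 3121 counts per library it was the most deeply counted gene of the set. Without AG636 sample 3 the log2 fold change was −0.35 (limma adjusted p = 0.0181), and without Vehicle sample 4 it was −0.39 (limma adjusted p = 0.0374). The weakest such fit was that without Vehicle sample 1 (log2 fold change −0.40, limma adjusted p = 0.0432).

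The lower transcripts can also be set against Apex1 within each sample, as a description only, since Apex1 was chosen for its fall. The ratio of Parp1 to Apex1 was 4.11 ± 0.0736 in Vehicle (4.03 to 4.19) and 5.85 ± 0.363 in AG636 (5.32 to 6.15). The ratio of Ung to Apex1 was 1.52 ± 0.255 in Vehicle and 1.55 ± 0.248 in AG636. AG636 sample 3 had the lowest value of its group in 6 of the 10 genes and the highest in none.

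The genes whose levels followed Apex1 most closely over the 8 samples were Eif4b, Dkc1, Gnl3, Fam136a and Nsun2, with root mean square differences from Apex1 of 0.0817, 0.0990, 0.0999, 0.100 and 0.101 in log2 CPM after centering each gene on its mean. Within the set, the closest were Ung at 0.216 (rank 166 of 10910 other genes), Parp1 at 0.259 (rank 378) and Tdg at 0.319 (rank 917). Neil1, at 0.722, was the farthest. All of these distances use the same samples as the contrast and describe likeness only.

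Genes beside the set bear on how its counts can be read, because whether strand was used in counting is not stated. Osgep, a tRNA-modifying enzyme gene that starts 75 bases from Apex1 on the other strand, went from 72.6 ± 5.27 to 64.3 ± 5.62 CPM and was not called (log2 fold change −0.18, 95% interval −0.39 to 0.03, limma adjusted p = 0.236). The ratio of Apex1 to Osgep was 1.39 to 1.62 in Vehicle and 0.802 to 1.0 in AG636, a description that carries the fall for which Apex1 was chosen. Pip4p1, on the strand opposite Apex1, has annotated exons over 100% of the last 300 exonic bases of Apex1, where 3′ reads fall. It had 877 counts over all samples against 4378 for Apex1, and its log2 difference was −0.07 (limma adjusted p = 0.743).

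Other genes of the set also share their ends with a neighbor on the other strand. Rffl covers 100% of the last 300 exonic bases of Lig3, with 1545 counts against 2100 and a log2 difference of 0.20 (limma adjusted p = 0.455). Camk1 covers 77.3% of those of Ogg1, with 1259 counts against 571 and a log2 difference of 0.38 (limma adjusted p = 0.142). Glt8d2 covers 100% of those of Tdg, with 4 counts against 1141. The levels of Apex1, Lig3, Ogg1 and Tdg are uncertain for that reason. The low count of Glt8d2 does not settle this for Tdg, because how reads in shared exons were counted is not stated. Gm26909 lies within Polb with 106 counts, and Mir6904 lies within Parp1 with 0. The remaining divergent neighbors were thinly counted, with 178 counts for Gm11423 beside Lig3, 6 for Gm15492 beside Ogg1 and 0 for Pinlyp beside Xrcc1. No annotated gene overlaps Ung on the opposite strand.

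Around the set, 44 further genes of BER and of the nucleotide pools that feed it were examined, and all 44 were tested. Of these, 10 were called lower and 3 higher by limma, 29.5% in all, against 14.0% of all genes tested, of which 8.49% were called lower and 5.47% higher. The median log2 fold change of the 44 genes was −0.13. The list was also written with earlier results of these data known. With library size alone in place of TMM scaling, 5 were called lower and 3 higher, and without Vehicle sample 3 the calls numbered 5 in all. Fen1, Pold3, Pole3, Dna2 and Dctpp1 were called in all 19 alternative fits. The other 8 genes lost their call in some. Calls were kept in 17 fits for Aplf, 16 for Dut, 14 each for Hpf1 and Hmgb1, 12 each for Neil2, Pold4 and Itpa, and 11 for Pold2.

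Of 7 genes whose enzymes keep unwanted nucleotides out of DNA, 3 were called lower and 0 higher by limma, against 8.49% and 5.47% of all genes. None of the 7 was called higher by edgeR or DESeq2 either, and limma gave 1 an unadjusted p under 0.05 in that direction. Dctpp1, which hydrolyzes dCTP and modified cytosine nucleotides, was at 130.1, 148, 148 and 153 CPM in Vehicle and at 72.3, 70.7, 84.9 and 100.3 CPM in AG636. This was the largest called difference among the lower genes of the list, −0.83 on the log2 scale (SE 0.12, limma adjusted p = 0.00262). Dut, the dUTPase that both prevents uracil insertion and makes dUMP for thymidylate synthesis, was at 455, 462, 480 and 600 CPM in Vehicle and at 402, 366, 335 and 387 CPM in AG636. Its groups did not overlap, Vehicle sample 4 stood highest, and Dut differed by −0.42 on the log2 scale (SE 0.10, limma adjusted p = 0.0255). The call on Dut was lost without Vehicle sample 3 or 4 and with library size alone. Itpa, which clears deaminated purine nucleotides, was lower by a log2 difference of −0.36 (limma adjusted p = 0.0349). Of the genes not called, Nudt18 had the largest difference, at 0.52 (limma adjusted p = 0.0902).

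In the long-patch branch, which displaces a flap with the replicative polymerases, 5 of 17 genes were called lower and 1 higher, against 8.49% and 5.47% of all genes. Fen1, the flap endonuclease, went from 168 ± 5.21 to 118 ± 15.5 CPM (log2 fold change −0.52, SE 0.10, limma adjusted p = 0.00750). The polymerase subunit genes Pole3, Pold3 and Pold2 were lower by log2 fold changes of −0.68, −0.54 and −0.40 (limma adjusted p = 0.00981, 0.00668 and 0.0407), and Hmgb1, a cofactor of the branch whose many processed copies make its counts uncertain, by −0.30 (limma adjusted p = 0.0210). Pold4, the small subunit of polymerase delta, rose instead, from 11.4 ± 1.52 to 18.3 ± 3.57 CPM (log2 fold change 0.67, limma adjusted p = 0.0327). The calls on Pold2 and Pold4 were kept in only 11 and 12 of 19 alternative fits. Pole2 had the largest difference among those not called (−0.46, limma adjusted p = 0.0677). Lig1, the replicative ligase, had the highest level of the branch in Vehicle at 634 ± 33.0 CPM, and Pcna, the sliding clamp, stood at 164 ± 15.3 CPM, and neither was called (−0.10 and −0.35, limma adjusted p = 0.612 and 0.110). The last pair was chosen for mention after its values were seen.

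Of 4 genes that act on DNA ends, 1 was called higher and none lower by limma, against 5.47% and 8.49% of all genes. For the 0 lower calls, 1 gene had an unadjusted p under 0.05, and edgeR and DESeq2 also called 0. Aplf, which binds ADP-ribose chains and XRCC1, was at 20.4, 25.7, 19.0 and 27.7 CPM in Vehicle and at 51.9, 57.8, 30.2 and 41.9 CPM in AG636 (log2 fold change 0.94, SE 0.21, limma adjusted p = 0.0157). The groups did not overlap for Aplf, and AG636 sample 3 lay closest to Vehicle. The second AP endonuclease gene of the genome, Apex2, was lower without passing the test (log2 fold change −0.56, limma adjusted p = 0.0822).

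The next lists each held 1 call, 16.7%, 20% and 20% of their genes, against 14.0% of all genes tested. Nothing is read from these counts. Of 6 other glycosylase genes, Neil2, which acts on oxidized pyrimidines in open DNA, was called higher. It went from 5.23 ± 1.01 to 10.6 ± 3.42 CPM (log2 fold change 0.97, SE 0.28, limma adjusted p = 0.0420), a call kept in 12 of 19 alternative fits. Neil3 had the largest difference among the others (0.48, limma adjusted p = 0.148). Of 5 ADP-ribose enzymes, Hpf1, the partner that directs PARP1 to serine residues, was called lower (−0.34, limma adjusted p = 0.0241), and Parp2, a second nick sensor, was not (−0.27, limma adjusted p = 0.135). Of 5 mitochondrial repair genes, the nuclease and helicase gene Dna2 was called lower (−0.62, limma adjusted p = 0.00481), and Polg2 had the largest difference among the others (0.23, limma adjusted p = 0.649).

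**Figure D2:**
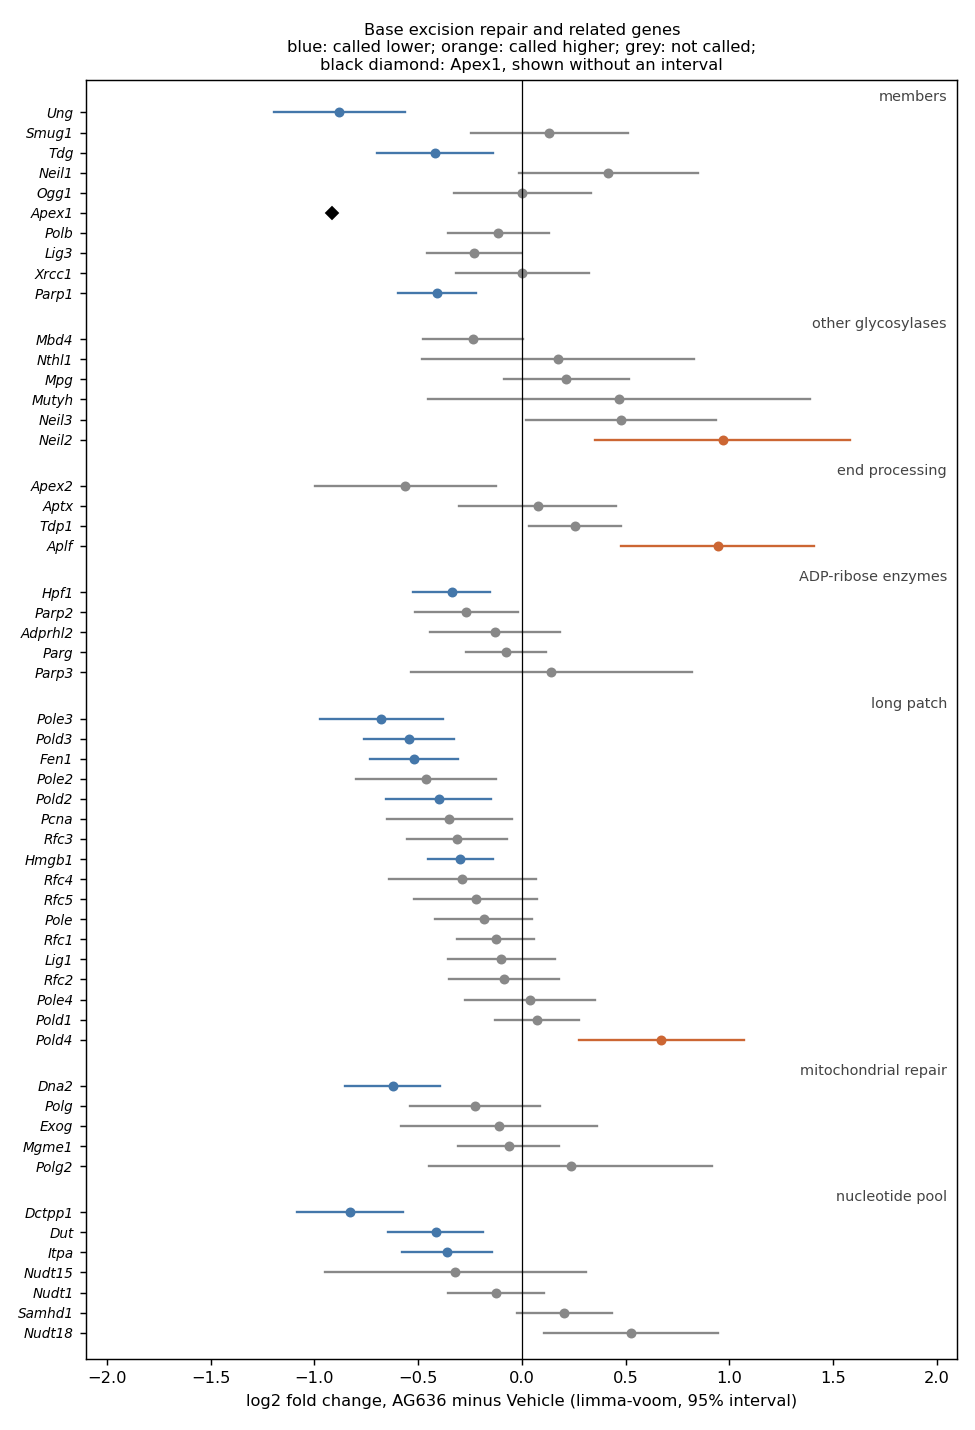
Log2 fold change of AG636 against Vehicle for the 10 BER genes and the 44 further genes of the pathway, grouped by role, with points at the limma estimate and lines for the 95% interval. Blue marks genes called lower, such as Ung at −0.88 and Dctpp1 at −0.83, orange those called higher, such as Neil2 at 0.97 and Aplf at 0.94, and grey those not called. Apex1, at −0.91, is a diamond without an interval because it was chosen for its fall, so no test of it is reported.

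**Figure D3:**
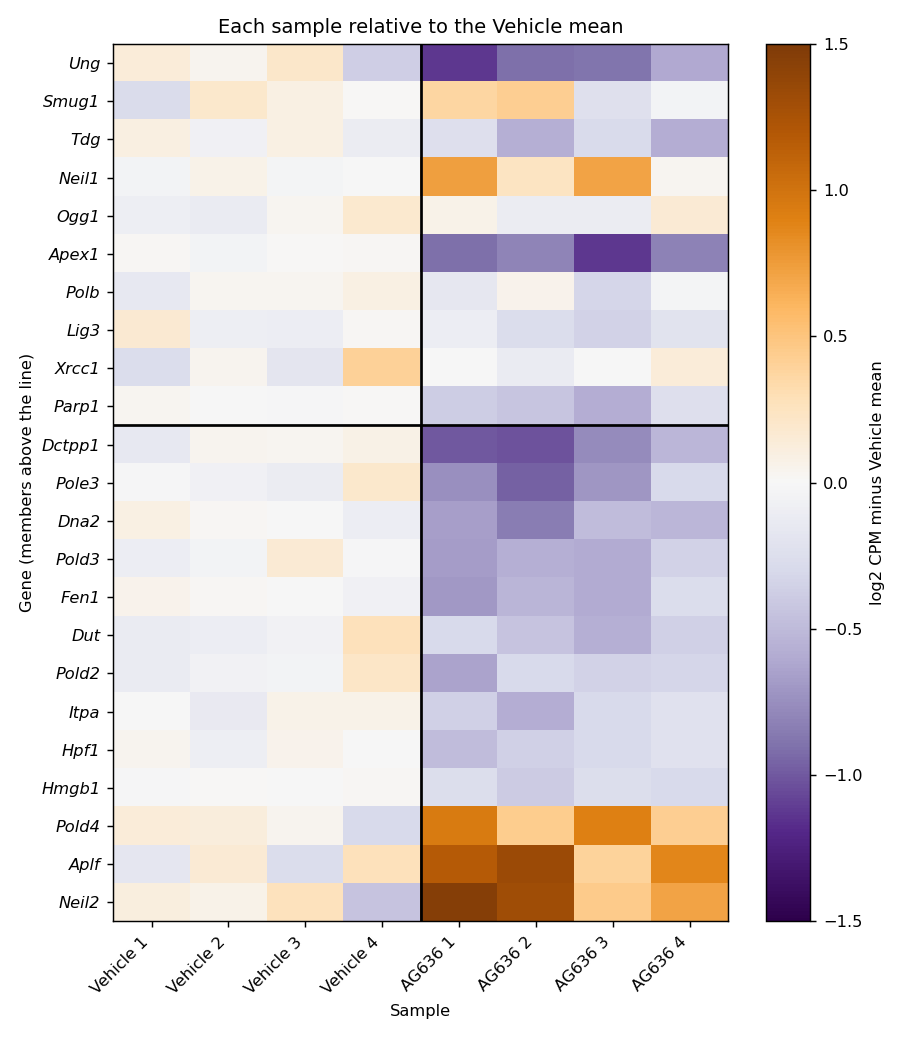
Level of each of the 10 BER genes (above the line) and of the 13 called genes of the wider list (below it) in each of the 8 samples, as log2 CPM minus the Vehicle mean of that gene. Among the 10 genes, Apex1, Ung, Tdg, Lig3 and Parp1 are below 0 in every AG636 sample. Neil1 is above 0 in each, only narrowly in AG636 sample 4. Of the wider list, the 10 genes called lower are below 0 in every AG636 sample, and Neil2, Aplf and Pold4 are above 0. Ogg1 and Xrcc1 show no such split.

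Cell cycle genes moved in these samples as well. Of 31 S phase genes, 11 were called lower and 0 higher, against 8.49% and 5.47% of all genes, and their summed level was 4248 to 4671 CPM in Vehicle and 3163 to 4041 CPM in AG636. By limma 0 of them had an unadjusted p under 0.05 in the higher direction, and edgeR and DESeq2 called 0 higher. The smallest p was that of Cdt1, a replication licensing factor gene (log2 fold change −0.71, limma adjusted p = 0.00214). Of 22 mitosis genes, 8 were called higher and 0 lower, against the same shares of all genes, with sums of 5008 to 6665 and 6638 to 7800 CPM, and limma at an unadjusted p under 0.05, edgeR and DESeq2 likewise gave 0 lower. The smallest p there was that of Cenpf, a kinetochore gene (0.51, limma adjusted p = 0.00544). As background, Ung, Fen1 and Dut are transcribed mainly around the start of S phase. The part of the cell cycle in the differences of the BER genes was not tested.

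**Figure D4:**
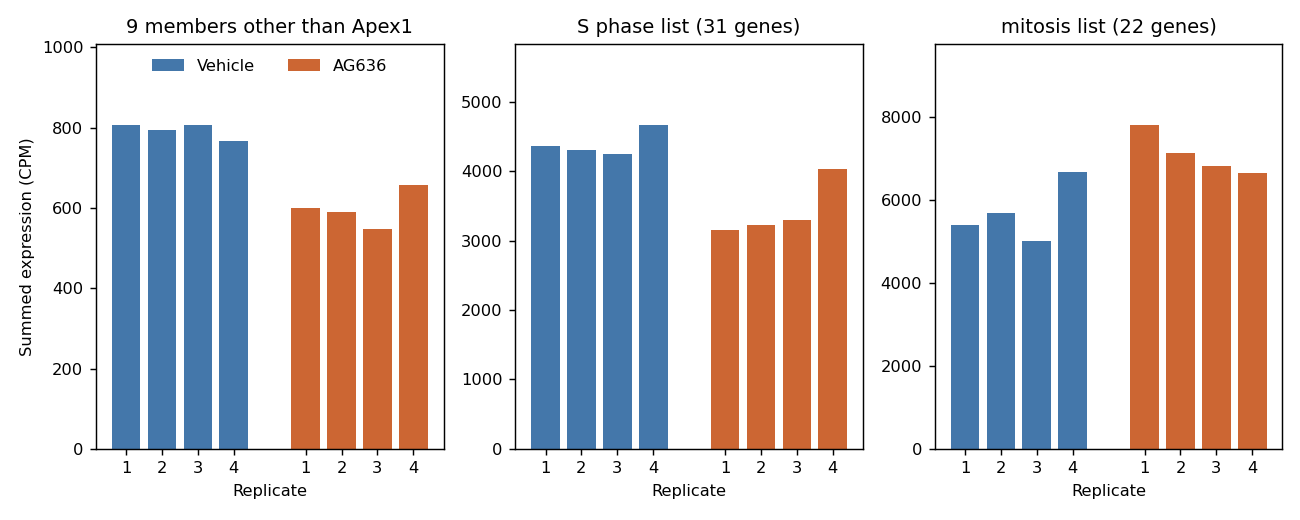
Summed level in CPM, in each sample, of the 9 BER genes other than Apex1, of the 31 S phase genes and of the 22 mitosis genes, with 1 bar per replicate and axes from 0. The sum of the 9 BER genes is 768 to 807 CPM in Vehicle and 547 to 657 CPM in AG636, the S phase sum also separates the groups, and the mitosis sums overlap.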

How the data were processed

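RNA was measured in 8 samples, grouped by their titles into Vehicle and AG636. The deposited table holds unnormalized counts of reads for each gene, which the authors made by trimming reads with cutadapt, mapping them to mm10 with HISAT2 and counting with featureCounts of Subread. Strand use in counting is not given in the sources used here. Symbols came from a name table, and 54123 of the 54809 genes shared with GENCODE M21 had the same coordinates there.

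Genes were kept by filterByExpr (minimum count 10), scaled by TMM and compared with limma-voom in R 4.3.3 (versions 3.58.1 of limma and 4.0.16 of edgeR), with group as the only term, since the methods of the study name limma. Tests were two-sided, with Benjamini-Hochberg adjustment over all 10911 genes and a threshold of 0.05. CPM values divide each count by the library total after TMM scaling and are given with the SD over 4 samples. The fit was tested on simulated data. By a chi-square test of counts, no 2 samples of a group were alike enough to be 1 library.

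The 10 genes and all lists were chosen with earlier results of these data known. Named were the 10 genes, the wider list's called genes with the largest uncalled difference of each role, genes overlapping the 10 or starting within 1000 bases on the other strand, the 5 most like Apex1, the sort markers, and the smallest p of each other list. A gene of the wider list is not reported here and was left out of its counts. Alternatives were edgeR's quasi-likelihood fit, version 1.42.0 of DESeq2, limma-trend, sample weights, other scalings and filters, no mitochondrial genes, a replicate block, and the omission of each sample. Sequences came from RefSeq promoter windows (GRCm38.p6), which 9 of the 10 genes matched.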

Additional observations from a re-analysis of the deposited data

Results flagged for a closer look

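The level of Pold2, a subunit gene of polymerase delta, was lowest in AG636 sample 1, at 5.12 on the log2 CPM scale (34.4 CPM), and the other AG636 samples lay between 5.41 and 5.46 (42.1 to 43.7 CPM). The gap to the nearest sample exceeded the limit of Dixon's test for 4 samples. It was the only 1 of 46 combinations of gene and group to do so among the 10 genes and the 13 called genes of the wider list, and chance alone would give about 2.3.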

How the results depend on the processing

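Ung and Parp1 were called in all 19 alternative fits and Tdg in 3 of them. Apex1 kept its direction in all 19, which carries no weight because it was chosen for its fall in these samples. Smug1, Neil1, Lig3 and Polb kept theirs and were called in none. Among the 9 genes other than Apex1 the count of 3 calls lay between 2 and 3 when each sample was left out and became 1 at an adjusted p under 0.01. Over all genes the 1523 calls became 435 at that threshold and lay between 688 (without Vehicle sample 3) and 1706 (without AG636 sample 3), with 798, 918 and 1010 without Vehicle sample 1, 2 and 4. In the wider list the 13 calls became 5 at that threshold, 8 with library size alone, and lay between 5 (without Vehicle sample 3) and 16 (without AG636 sample 4), with 6 without Vehicle sample 1 or 4 and 8 without AG636 sample 1. Fewer samples enter these fits, and the cause of the other shifts was not tested.

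The near-zero log2 fold change of Ogg1 turned to −0.00046 with edgeR, −0.0013 with limma-trend, −0.0060 without a filter and −0.00023 with the replicate block, and lay between −0.040 and 0.079 when each sample was left out. That of Xrcc1 turned to −0.021, −0.0032, −0.00049, −0.0054 and −0.014 with edgeR, DESeq2, limma-trend, no filter and the replicate block, and lay between −0.090 and 0.15 when each sample was left out. Neither gene was called in any fit. Of all calls, 60.8% were lower with TMM and 38.3% with library size alone, which moved the median of all genes to 0.064, and in the wider list 76.9% and 62.5% were lower. The replicate number as a block gave 1446 calls over all genes, 2 among the 9 genes (Tdg at an adjusted p of 0.0570) and 15 in the wider list. Same-numbered samples shared little beyond the number: their deviations correlated at −0.14, 0.014, 0.20 and 0.14, and only Vehicle sample 3 was most like its own number. Genes under about 100 counts per library, Neil1 and Ogg1 among the 10, allow only wide intervals.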

Other observations

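Genes of other DNA repair pathways were measured in the same samples. Of 22 nucleotide excision repair genes, which remove bulky lesions, 4 were called lower and 1 higher by limma, against 8.49% and 5.47% of all genes tested, with a median log2 fold change of −0.19. The smallest p belonged to Gtf2h1, a subunit gene of the repair factor TFIIH, at −0.48 (limma adjusted p = 0.0149). Of 8 mismatch repair genes, which correct replication errors, 1 was called, Msh6, lower at −0.46 (limma adjusted p = 0.0278), with a median of −0.23 for the list. Of 10 end-joining genes, 0 were called by limma or edgeR and 1, higher, by DESeq2, while limma gave 1 lower and 1 higher at an unadjusted p under 0.05. The median of the end-joining genes was 0.04, that of all genes tested −0.0056. Whether these lists differ from the BER genes was not tested.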
